A study of Mus musculus with 9 samples.

Results

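The 8 genes described here encode the pore-forming alpha1 subunits of voltage-gated calcium channels: Cacna1a (P/Q-type), Cacna1b (N-type), Cacna1c and Cacna1d (L-type), Cacna1e (R-type), and Cacna1g, Cacna1h and Cacna1i (T-type). They were taken by gene symbol, with no threshold on any value, and are 8 of 31051 named genes in the table. Nuclear RNA was sequenced in 9 libraries from phototagged hippocampal pyramidal cells of mice labelled WT. Cells had been classed by two-photon imaging during navigation: 5 libraries came from place cells, which fire at particular locations, and 4 from silent cells. Library preparation used SMART-Seq mRNA LP, a kit that amplifies polyadenylated RNA from small inputs, and no treatment, age or further allele is given in the labels. Each title carries a mouse designation with a number of its own, but no label says whether this number stands for an animal, so the p-values measure the spread between these libraries, part of which may be technical. Replicate numbers only name the libraries.

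An alpha1 subunit forms the calcium-selective pore and carries the voltage sensor. Beta and alpha2delta subunits assist the trafficking and gating of P/Q-, N-, L- and R-type channels. P/Q- and N-type channels trigger transmitter release at presynaptic terminals. L-type channels on the soma and dendrites couple activity to gene expression. R-type channels contribute to dendritic and spine calcium signals in hippocampal pyramidal cells, and T-type channels open near the resting potential and support burst firing.

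Recovered depth was 13.96 to 22.2 (in units of 1000000 reads) per library, and 14175 to 20989 genes were detected. Silent replicate 1, silent replicate 4 and place replicate 3 lay farthest along the first 3 principal components, which held 22.8%, 16.6% and 15.8% of the variance. Reads of the Y-linked gene Eif2s3y were present in all 4 silent libraries and in place replicate 1, and the other 4 place libraries had none at a level of 1 RPM or more, so that more than 1 animal was sampled and sex and group largely cannot be told apart. RPM is recovered reads per 1000000 of a library's depth after scaling between libraries. Markers of pyramidal cells were present throughout, with summed levels of 3113 to 4184 RPM in place and 3361 to 4533 RPM in silent libraries, and those of the CA1 field, which the labels do not name, reached 328 to 653 and 498 to 678 RPM. None of the 5 CA1 markers had a higher mean in place, while all 4 measured CA3 markers did (summed means 61.3 against 27.5 RPM). The CA3 sums overlapped, at 17.5 to 114 RPM in place and 13.2 to 35.0 RPM in silent libraries. Place replicates 1 and 4, at 32.0 and 17.5 RPM, lay within the silent range. RNA of other cell types was present too. Interneuron markers summed to 92.8 to 399 RPM in place and 88.4 to 308 in silent libraries. Astrocyte markers reached 1282 RPM in place replicate 3, against 47.5 to 323 RPM elsewhere. Oligodendrocyte precursor markers reached 240 RPM in silent replicate 1.

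The log2 levels of the L-type genes Cacna1c and Cacna1d had a Pearson r of 0.731 over the 9 libraries (0.628 without silent replicate 1), as described further on. Cacna1c was closer to Cacna1h, r = 0.891, for which no upstream window was listed. The upstream sequences of Cacna1c and Cacna1d are shown, and a link between sequence and level was not tested. Each is 250 bases before a start listed by RefSeq in GRCm38.p6, written 5′ to 3′ on the gene's strand, with each GC box (GGGCGG, on either strand, overlaps allowed) in capitals.

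Cacna1c, chr6:119108496-119108745, minus strand: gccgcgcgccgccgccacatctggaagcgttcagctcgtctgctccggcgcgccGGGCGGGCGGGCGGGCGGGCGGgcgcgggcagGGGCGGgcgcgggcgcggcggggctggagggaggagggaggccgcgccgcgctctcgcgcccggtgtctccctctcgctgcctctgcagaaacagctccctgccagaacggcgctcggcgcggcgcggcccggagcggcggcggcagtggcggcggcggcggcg

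Cacna1d, chr14:30353487-30353736, minus strand: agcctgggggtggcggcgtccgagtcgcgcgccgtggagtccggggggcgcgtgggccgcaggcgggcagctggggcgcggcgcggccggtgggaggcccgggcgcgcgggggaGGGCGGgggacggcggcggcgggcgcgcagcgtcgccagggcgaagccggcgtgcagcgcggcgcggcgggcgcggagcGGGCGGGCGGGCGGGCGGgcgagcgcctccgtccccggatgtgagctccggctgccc

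Of the windows listed for each gene, the one richest in CpG is shown. The Cacna1c window had 82.8% G and C and 48 CpG, and the Cacna1d window 86.4% and 50 CpG, at the 99.8th and 99.9th percentile of CpG count among 32851 RefSeq windows of this length, whose median was 6. They held 6 and 5 GC boxes, a motif found in 32.7% of all windows. Neither held the cAMP response element TGACGTCA (1.55% of windows) or TATAAA (12.4%), searched on both strands. The table lists 3 starts for Cacna1c and 2 for Cacna1d, and the windows not shown were of another kind. Those of Cacna1c had 5 and 2 CpG, at the 44.4th and 18.8th percentile, and the one of Cacna1d had 2 CpG, at the 18.8th percentile, and 3 matches to TATAAA. None of these held a GC box, and counts per gene do not show which start was used. An upstream window was listed for 5 of the 8 genes.

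R-type, P/Q-type and N-type genes had the highest levels per length. Over the 9 libraries, Cacna1e averaged 35.3 ± 5.91 RPM per kb of exon (SD, n = 9), Cacna1a 30.7 ± 6.54 and Cacna1b 26.8 ± 7.49. They lay at the 91.7th, 89.8th and 87.5th percentile of the 14486 tested genes with an exon length. Per kb of exon the order among them was not firm, since Cacna1e exceeded Cacna1a in 6 of 9 libraries and Cacna1a exceeded Cacna1b in 5 of 9.

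On this exon scale a clear step separated these from the next gene. Cacna1d averaged 9.55 ± 4.04 RPM per kb, and Cacna1b was above it in 8 of 9 libraries, the exception being place replicate 3. Below it came Cacna1g at 7.39 ± 2.92, Cacna1h at 5.43 ± 3.66, Cacna1i at 3.46 ± 2.31 and Cacna1c at 2.75 ± 1.61 RPM per kb, each less than 1 SD from its neighbour. Cacna1c had the longest merged exons but for Cacna1e (21.2 and 25.2 kb, against 9.76 to 12.6 kb for the others). By coding length Cacna1c ranked 6th in place of 8th. Cacna1e, at 123 RPM per kb of coding length, was then highest in 9 of 9 libraries, above Cacna1a at 49.3 and Cacna1b at 36.3. The order of the lower genes and the steps between the upper ones thus depend on the gene model.

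None of the 8 genes differed between place and silent cells past an adjusted p of 0.05, and neither did any other of the 15217 genes tested (0% called, limma with Benjamini-Hochberg adjustment). Higher mean levels in place cells were clearest for Cacna1h, 3.15 times the silent mean, and Cacna1c, 2.36 times. These were the only alpha1 genes with an unadjusted p under 0.05 in limma, both higher in place, and 3.76% of all tested genes met that criterion, with a further 1.27% lower in place. With limma-voom on the recovered reads 0.0263% of tested genes passed the adjusted threshold, none of them an alpha1 gene (smallest adjusted p of the 8, 0.789). Cacna1h was also the only one whose groups did not overlap, as 1.31% of all tested genes did with place higher. The other 7 overlapped, and 5 of the 8 differences were positive, with a median of 0.18 on the log2 scale. Over all tested genes 59.1% were positive and the median was 0.20. In these bulk sums, fewer cells with a transcript and less RNA per cell cannot be told apart.

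**Figure D1:**
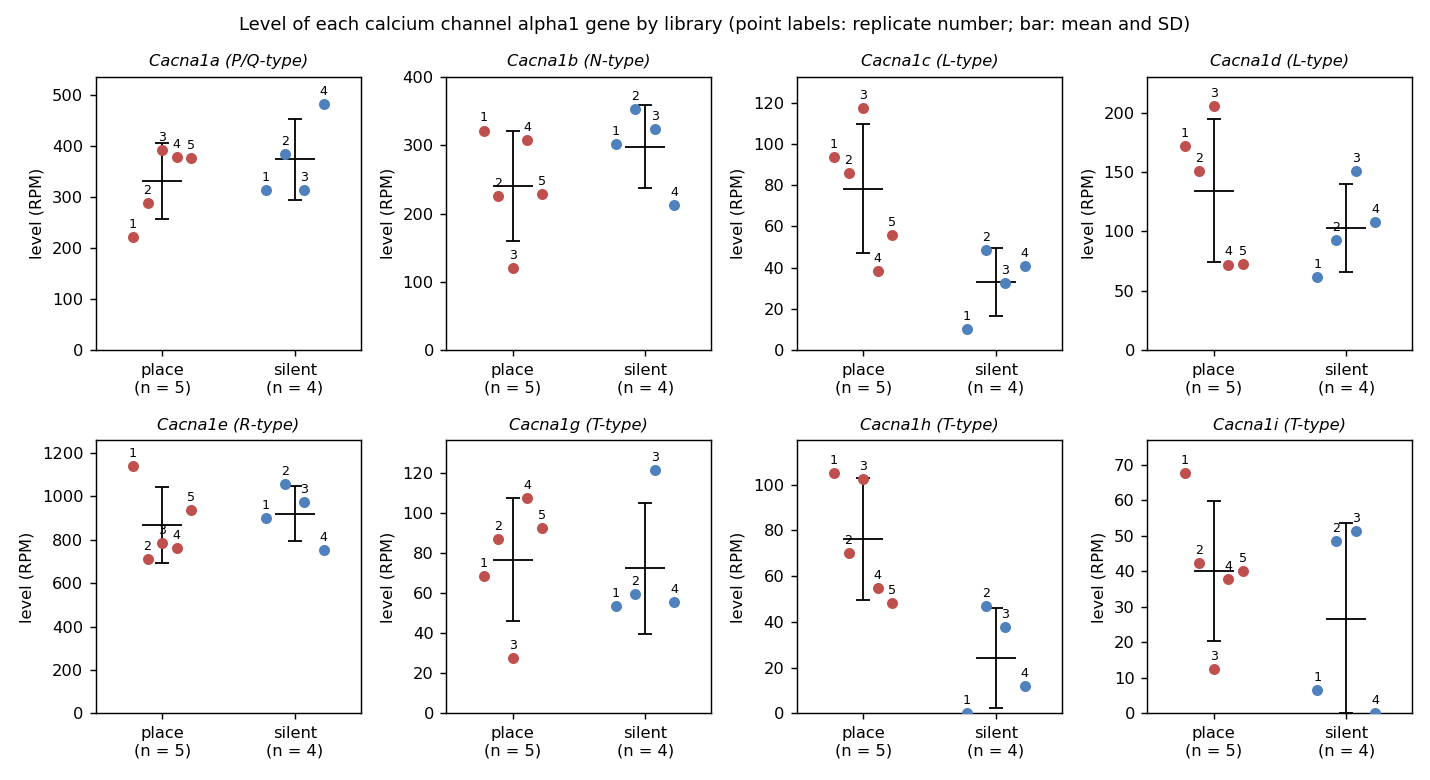
Level of each alpha1 gene in RPM (vertical axis, from 0) in the 5 place and 4 silent libraries; numbers are replicates, and the bar is the mean with its SD. All 5 place libraries lie above all 4 silent libraries for Cacna1h, and the groups overlap for the other 7 genes.

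Cacna1a, the P/Q-type pore of most fast central synapses, was at 222, 288, 391, 378 and 376 RPM in place replicates 1 to 5. In the silent replicates 1 to 4 it was at 314, 384, 314 and 482 RPM. The lowest value was in place replicate 1 and the highest in silent replicate 4, with the rest interleaved. The means were 331 ± 73.6 RPM (SD, n = 5) and 374 ± 79.5 (SD, n = 4), a log2 difference, place minus silent, of -0.18 ± 0.23 (SE), with a 95% interval from -0.68 to 0.31 and a limma adjusted p of 0.893.

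Cacna1b, the N-type pore blocked by omega-conotoxin GVIA, was at 322, 225, 119.9, 308 and 228 RPM in the place libraries and 303, 353, 324 and 213 RPM in the silent ones. Place replicate 3 stood below all others. The means were 241 ± 80.8 and 298 ± 60.4 RPM, and the log2 difference was -0.36 ± 0.30, with an interval from -1.03 to 0.30 and a limma adjusted p of 0.861. The ratio of Cacna1a to Cacna1b per kb ran from 0.600 in place replicate 1 to 2.84 in place replicate 3, so both extremes lay in 1 group, and the silent libraries ran from 0.845 to 1.97.

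Cacna1e, the R-type pore, was the steadiest of the family, with a coefficient of variation of 16.7% over the 9 libraries against 21.3% to 67.4% for the others. It was at 1141, 712, 783, 759 and 937 RPM in the place group and 899.8, 1054, 971 and 754 RPM in the silent group. The silent values all fell inside the place range. The log2 difference was -0.10 ± 0.17, and its interval from -0.48 to 0.28 was the narrowest of the 8 (limma adjusted p = 0.935).

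Cacna1c, the L-type pore known as CaV1.2, was at 93.5, 86.1, 117, 38.4 and 56.0 RPM in place libraries. In silent libraries it was at 10.2, 48.8, 32.7 and 40.8 RPM. All place libraries but replicate 4 lay above every silent library, place replicate 4 lay within the silent range, and silent replicate 1 was the lowest with 140 reads. The means were 78.3 ± 31.2 and 33.1 ± 16.6 RPM. The log2 difference was 1.35 ± 0.56, with an interval from 0.12 to 2.58 (limma unadjusted p = 0.0339, adjusted p = 0.861). It was 1.12 ± 0.60 with limma-voom on the recovered reads, 0.85 without silent replicate 1 and 0.69 without the 3 libraries set apart. In every library the RPM of Cacna1c was below that of Cacna1d, the other L-type gene.

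Cacna1d, the L-type pore known as CaV1.3, which opens at more negative voltages, was at 172, 150.5, 206, 72.1 and 72.2 RPM in the place group and 61.7, 92.6, 151 and 108 RPM in the silent group. The place libraries split into 3 high and 2 low values, and the silent libraries spanned the gap. The log2 difference was 0.32 ± 0.40, with an interval from -0.55 to 1.197 (limma adjusted p = 0.893). Without the 3 libraries set apart it was -0.13.

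Place replicates 1, 2 and 3, highest for both L-type genes apart from silent replicate 3 in Cacna1d, also held the most RNA of oligodendrocyte markers, 1411, 1967 and 3254 RPM summed over 9 markers. Place replicates 4 and 5 had 292 and 190.4 RPM and the silent libraries 118 to 550. All 9 markers had a higher mean in place libraries and none was at 0 throughout. Silent replicate 1, lowest for both L-type genes, had the highest oligodendrocyte sum of its group. Without these 3 place libraries the log2 difference was 0.70 for Cacna1c, -0.44 for Cacna1d and 2.97 for Cacna1h. The same 3 place libraries were the highest of all 9 for Cacna1h, and its value of 2.97 still includes silent replicate 1. The part of such cells in the values of these 3 genes was not tested.

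Cacna1g, the T-type pore CaV3.1, was at 68.5, 86.9, 27.9, 108 and 92.7 RPM in the place group and 53.4, 59.6, 122 and 55.7 RPM in the silent group. Place replicate 3 was the lowest and silent replicate 3 the highest of all. The log2 difference was 0.03 ± 0.47, with an interval from -0.99 to 1.06 (limma adjusted p = 0.995), and its sign turned on leaving out any of 6 single libraries.

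Cacna1h, the T-type pore CaV3.2, was at 105, 70.2, 102, 54.9 and 48.1 RPM in place libraries. In silent libraries it was at 0.0727, 46.8, 37.7 and 12.1 RPM, the first being 1 read against 274 to 919 in the other silent libraries. The lowest place library, at 48.1 RPM, was only just above the highest silent one, at 46.8 RPM, and with the values as deposited, unscaled between libraries, the groups overlapped. The means were 76.2 ± 26.5 and 24.2 ± 21.8 RPM. The log2 difference was 3.46 ± 1.505, with an interval from 0.19 to 6.74 (limma unadjusted p = 0.0398, adjusted p = 0.861). This size rested on silent replicate 1: without it the log2 difference was 1.39 ± 0.52, and without all 3 libraries set apart 0.66 ± 0.43.

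Silent replicate 1, lowest for Cacna1h, also had the fewest genes detected, 14175, and with the number of genes per library as a term the log2 difference was 1.72 ± 1.81. The library of the place group with Y-linked reads, replicate 1, had the highest Cacna1h level of all, 105 RPM. Leaving it out gave 3.33, but Y-linked reads then match the groups fully, so this value cannot bear on sex. The part of sex in the difference was not tested.

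Cacna1i, the T-type pore CaV3.3 with slow kinetics, was at 67.8, 42.3, 12.4, 37.7 and 40.1 RPM in place libraries. In silent libraries it was at 6.47, 48.6, 51.3 and 0 RPM. Silent replicates 2 and 3 were above 4 of the 5 place libraries, and silent replicate 4 had no read, which allows up to 0.132 RPM by counting error alone. The log2 difference was 2.91 ± 1.96, with an interval from -1.35 to 7.18 (limma adjusted p = 0.861). Without silent replicate 4 it was 0.48, so that its size came from the library without reads.

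The alpha1 gene of retinal photoreceptors, Cacna1f, was outside the 8 and did not pass the filter on low values. It had 81, 76 and 330 reads in place replicates 2, 4 and 5 (4.65, 3.48 and 17.6 RPM) and none in the other 6 libraries. The skeletal muscle gene Cacna1s was not analysed here.

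**Figure D2:**
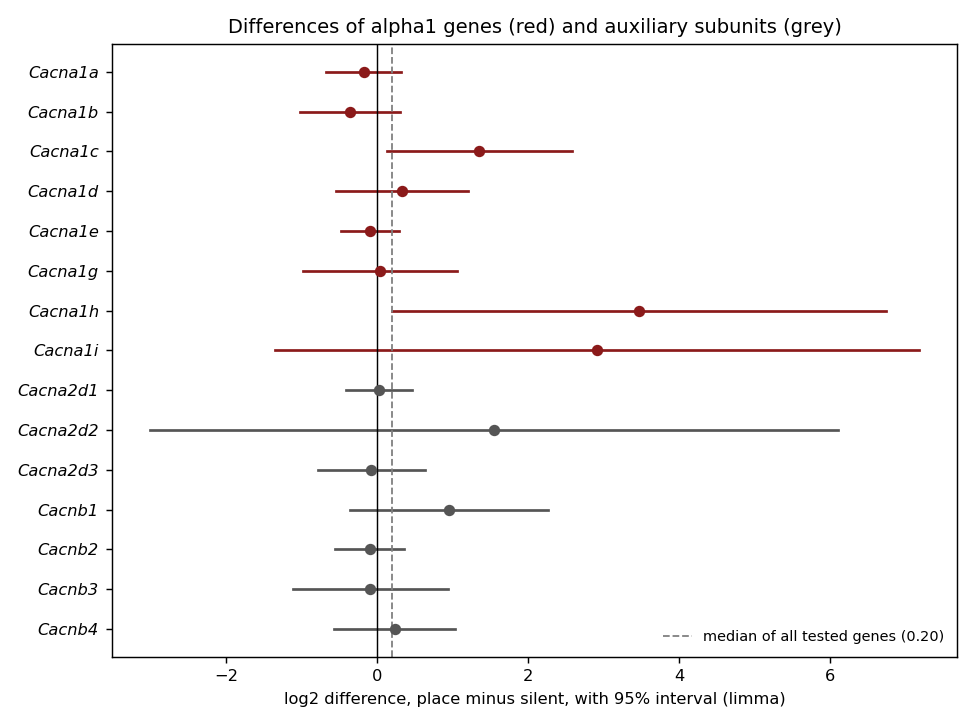
Log2 difference, place minus silent, with its 95% interval from limma (horizontal axis), for the 8 alpha1 genes and 7 auxiliary subunits; the dashed line is the median of all tested genes, 0.20. The intervals of Cacna1c and Cacna1h lie above 0, those of Cacna1h and Cacna1i are the widest of the alpha1 genes, and none of the 15 genes passed the adjusted threshold.

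The summed alpha1 level was alike in mean, 121 ± 10.9 RPM per kb in place and 121 ± 15.7 in silent libraries, while the shares of its types varied. T-type genes made up 17.5%, 17.9%, 12.8%, 16.5% and 15.2% of the sum in place replicates 1 to 5, and 5.66%, 11.5%, 15.8% and 6.08% in silent replicates 1 to 4. Silent replicate 3 alone of its group reached into the place range, and silent replicates 1 and 4, both set apart, were lowest. P/Q- and N-type genes together made up 44.0 ± 5.95% in place and 52.2 ± 5.44% in silent libraries. The R-type share was 28.1 ± 3.47% and 30.1 ± 2.98%, and the L-type share 11.9 ± 5.40% and 7.94 ± 2.29%. The order of the types depends on the gene model: by coding length the R-type share was 46.1 ± 4.36% in place and 49.3 ± 3.98% in silent libraries, above the P/Q- and N-type share of 31.2 ± 5.28% and 36.5 ± 4.23%. The T-type share was then 10.7 ± 1.60% and 6.54 ± 3.31%, and the L-type share 12.1 ± 5.25% and 7.66 ± 2.33%, so that each share kept the same group higher in mean. Shares of 1 sum are not independent of each other, and none was tested.

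**Figure D3:**
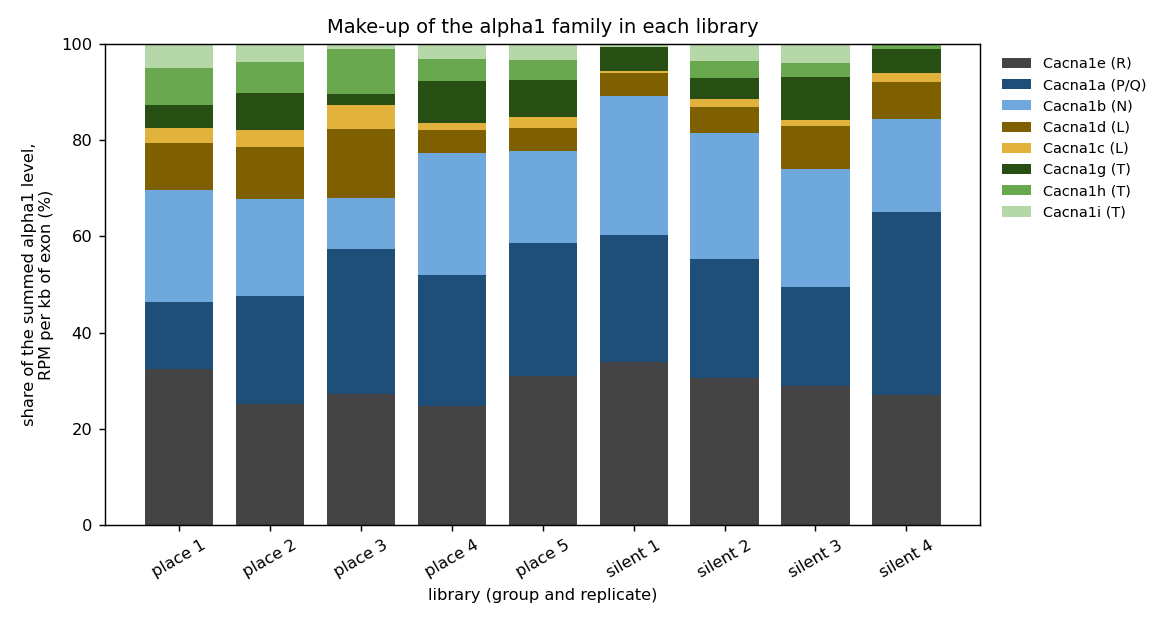
Share of each alpha1 gene in the summed alpha1 level, from RPM per kb of exon (vertical axis, percent), in each library. Cacna1e, Cacna1a and Cacna1b fill most of every bar; the T-type share (greens) is 12.8% to 17.9% in place and 5.66% to 15.8% in silent libraries.

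Across libraries the family did not move as 1 group. Of the 28 pairs of alpha1 genes, 15 had a positive Pearson r of log2 values over the 9 libraries and 13 a negative one, with a median of 0.0117. The highest was between Cacna1c and Cacna1h, r = 0.891, or 0.726 without silent replicate 1, where both were lowest. The L-type pair Cacna1c and Cacna1d followed, r = 0.731, or 0.628 without that library, and then Cacna1b and Cacna1g, r = 0.649. Cacna1a and Cacna1i had the lowest, r = -0.620. The order of the pairs depended on silent replicate 1: without it the highest was Cacna1h with Cacna1i, r = 0.789 (0.343 with it), then Cacna1c with Cacna1h, then Cacna1b with Cacna1g, r = 0.720, and Cacna1a with Cacna1h went from -0.049 to -0.661. The r values of Cacna1i depend on silent replicate 4 as well, where it had no read, a log2 deviation of -8.92 from its mean. In that library Cacna1h was lowest but for silent replicate 1, and Cacna1a was highest. No r was computed without silent replicate 4. All these r values are descriptions over libraries that differ in depth and cell mix.

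**Figure D4:**
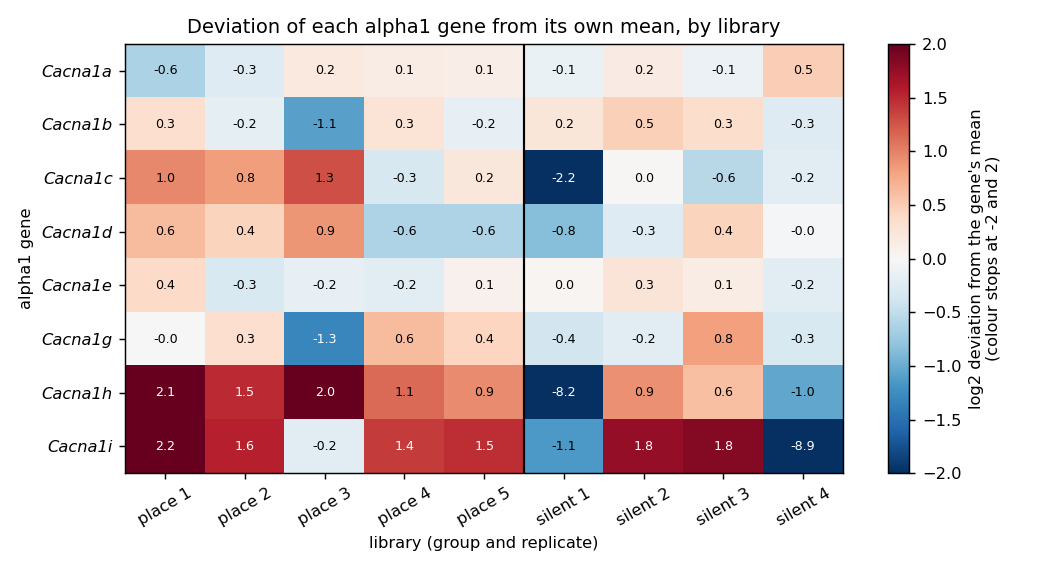
Log2 deviation of each alpha1 gene from its own mean (colour, which stops at -2 and 2; numbers give the value) in each library, place left of the line and silent right. Cacna1c, Cacna1d and Cacna1h are above their means in place replicates 1 to 3. The darkest blue cells are Cacna1c and Cacna1h in silent replicate 1 and Cacna1i in silent replicate 4.

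The alpha1 genes differed widely in spread. The median SD of log2 values over the 9 libraries was 0.64 for the 8 genes, against 1.73 for all tested genes and 0.77 for the 8837 tested genes with reads in every library. The SD was 0.24 for Cacna1e, 0.32 for Cacna1a, 0.49 for Cacna1b, 0.63 for Cacna1d, 0.65 for Cacna1g and 1.05 for Cacna1c. It was 3.20 for Cacna1h and 3.52 for Cacna1i, above the median of all tested genes, and each of these had 1 silent library at or near 0.

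The genes most alike in pattern were sought among 7844 of these 8837 genes, leaving out predicted gene models and the alpha1 genes themselves. For Cacna1h these were Sgtb (r = 0.992) and Dab2ip (r = 0.984), for Cacna1c Gmeb1 (0.950) and Agfg2 (0.948), and for Cacna1d Creb1 (0.935) and Btbd9 (0.930). Cacna1a was most like Pik3r2 (0.964) and Ltbp4 (0.945), Cacna1b Zc3h12b (0.949), and Cacna1g Dnajc9 (0.962) and Tpr (0.939). Cacna1e, the steadiest, had the lowest best match, Magoh (0.892), then Rnf115 (0.868). In silent replicate 1 Cacna1h had 1 read, a log2 deviation of -8.16 from its mean, against at most 2.08 in size elsewhere. Its r values thus weigh that library most, and r without it was not computed. None of the r values was set against chance, and Cacna1i was not searched because 1 library had no reads.

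Auxiliary subunits and partners of the channels did not pass the adjusted threshold either. Of 36 listed partners 32 were tested, 18 with a positive and 14 with a negative log2 difference, with a median of 0.03 (smallest limma adjusted p = 0.861). Among the alpha2delta subunits, which aid surface delivery, Cacna2d1 averaged 535 ± 122 RPM in the place group and 518 ± 64.4 in the silent group. Cacna2d3 was at 263 ± 36.8 and 304 ± 142 RPM. Cacna2d2 was lower in mean in place, 19.6 ± 12.0 against 29.0 ± 26.01 RPM, while its log2 difference was positive, 1.55 ± 2.10, since silent replicate 4 had no reads. Reads of Cacna2d4 were not recovered, and it was not tested.

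The cytoplasmic beta subunits bind the I-II linker of P/Q-, N-, L- and R-type alpha1 subunits. They were led by Cacnb2, which averaged 290 ± 31.5 RPM in the place group and 315 ± 61.1 in the silent group. Cacnb4 was at 169 ± 56.6 and 149 ± 65.9 RPM, and Cacnb3 at 82.2 ± 32.5 and 90.7 ± 39.6 RPM. Cacnb1 had the largest log2 difference of the 4 beta genes, 0.95 ± 0.60, from means of 57.3 ± 16.0 and 34.3 ± 20.2 RPM (limma adjusted p = 0.861).

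In all, 3 partners, each higher in place, had an unadjusted p under 0.05, a criterion met with place higher by 3.76% of all tested genes. Rims2, an active zone scaffold that tethers presynaptic calcium channels, was at 175, 115, 129, 123 and 154 RPM in the place group and 62.2, 92.5, 98.4 and 83.3 RPM in the silent group, without overlap, as were 1.31% of all tested genes with place higher. Its log2 difference was 0.73 ± 0.30 (limma unadjusted p = 0.031, adjusted p = 0.861). Kcnma1, the BK potassium channel opened by calcium and voltage, averaged 377 ± 82.0 and 224 ± 105 RPM (log2 difference 0.83 ± 0.31), with overlap. Kcnn1, a small-conductance calcium-activated potassium channel, was low, at 7.74 ± 8.60 and 2.09 ± 4.01 RPM, and 2 silent libraries had no reads.

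Exons of 3 alpha1 genes overlap a gene on the opposite strand in the GENCODE models: Cacna1a with Gm16183 over 3.81% of its exon length, Cacna1d with Chdh over 4.67% and Cacna1h with Tpsg1 over 1.62%. Whether the counting used strand is not given in the sources used here, so reads of such stretches cannot be told apart. Gm16183 was at 2.33 to 20.4 RPM and Chdh at 0 to 16.1 RPM, below the alpha1 gene in every library. No level was available for Tpsg1, so it was not compared with Cacna1h.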

How the data were processed

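Per the submitters' processing notes, STAR, HTSeq and the GRCm39 build were used; no version, annotation, strand setting or normalization tool is given in the sources used here. Values in the deposited table are a read signal normalized by the authors, 9 libraries by 31051 named genes; 1 further column names no gene, held 0.177% to 0.304% of the signal and was left out. The values of a gene were whole multiples of 1 number per gene, and dividing by it gave whole reads. For 8876 of 8893 genes above 0 in all libraries (99.8%) that number matched, within 0.01 log2, a TMM (trimmed mean of M-values) factor computed per gene; it did so for all 8 alpha1 genes. For 6380 of the tested genes some library had no reads. For 8433 genes, at most 0.131% of a library's signal, reads were not recovered.

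The deposited signal carries no scaling between libraries, so libraries were scaled by TMM (30% trim of M-values, 5% of A-values). The gene test was limma 3.58.1 in R 4.3.3 with an intensity trend on log2(scaled value + 1), all 9 libraries, no covariate, place minus silent, on 15217 genes whose deposited value reached 10 in 4 or more libraries, with Benjamini-Hochberg adjustment and a threshold of 0.05. The log2 difference depends on the pseudocount where a library is near 0. The fit and the recovery of reads were tested on simulated data. Count models were planned as alternatives and were not run; the reads are inferred from normalized values, and limma-voom on the recovered reads was run. Lengths per kb are merged exons of GENCODE vM21 on GRCm38, another build than the authors', so coordinates are given only for the upstream windows, in the RefSeq table's own build. The floor of 3 reads covers counting error only.

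The genes named are the 8 alpha1 genes, 2 further family members, a list of 36 channel partners (all auxiliary subunits tested, and others with an unadjusted p under 0.05 or groups without overlap), and the 2 genes most alike to each alpha1 gene with reads in all libraries, of which 1 is not reported here. Cell type markers were listed for 10 types. Eif2s3y was named after its values were seen. The members and lists were chosen with earlier results of these data known.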

Additional observations from a re-analysis of the deposited data

Results flagged for a closer look

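Within each group, the highest and lowest library was compared with the range of its group for 30 combinations of gene and group, and chance alone puts about 1 in 20 past the limit used. Cacna1g in silent replicate 3, at 122 RPM, stood apart from the other 3 silent libraries (gap 0.909 of the group's range). Cacnb2 in silent replicate 4, at 224 RPM, stood below the other 3 (gap 0.937 of the range).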

How the results depend on the processing

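Across 19 alternatives no alpha1 gene passed the adjusted threshold, and 140 of 152 log2 differences kept their direction; 12 reversed. Cacna1g, near 0, ran from -0.12 to 0.37 on leaving out 1 library (negative without place replicates 2, 4 or 5 or silent replicates 1, 2 or 4). With genes detected per library as a term, Cacna1g was -0.52 and Cacna1e 0.0016. Without the 3 libraries set apart (silent replicates 1 and 4, place replicate 3; chosen after seeing the data), Cacna1d was -0.13 and Cacna1i -0.13. Without place replicates 1, 2 and 3 together (also chosen after seeing the data), Cacna1d was -0.44 and Cacna1a 0.037. Cacna1h ran from 0.66 to 4.41 and Cacna1c from 0.69 to 1.61, both positive throughout.

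Genes past the threshold numbered 4 with voom (Spock1, Gm44750, 2700029L08Rik and Hexim2; 0.0263% of genes, 942 at an unadjusted p under 0.05), 0 to 1 on leaving out 1 library (Eif2s3y, place replicate 1 left out) and 1 (Eif2s3y) without place replicates 1, 2 and 3 together. In limma 766 genes had an unadjusted p under 0.05. Alpha1 genes without overlap numbered 0 with values as deposited, 1 to 2 on leaving out 1 library (Cacna1c joined without place replicate 4), and 2 with the 3 libraries set apart left out. These 2 were Cacna1h, higher in place, and Cacna1b, lower in place (at most 322 RPM, against 353 and 324 RPM in silent replicates 2 and 3). The shares of all tested genes without overlap in these settings are not given here, and the cause of these changes was not tested. The median of all genes, 0.20, was 0.081 without silent replicate 1, 0.0064 once all 3 libraries set apart were left out and -0.032 with genes detected as a term. Both planned count models were not run. No paired analysis was possible because the labels give no replicate numbers that place and silent libraries share.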
